A study of Mus musculus with 25 samples.

Results

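The genes that hold back or release the cyclin-dependent kinases (CDKs) at mitotic entry were followed in single testis cells of mice with and without Ythdc2. The group was fixed by name and holds 10 of the 14103 genes in the deposited matrix: the phosphatases Cdc25a, Cdc25b and Cdc25c, the kinases Wee1 and Pkmyt1, the kinase Cdk2, the inhibitors Cdkn1b, Cdkn2c and Cdkn2d, and the CDK-binding subunit Cks2. All 10 were found by symbol. Cells came from testes of postnatal day 10 mice and were sorted for a 4N DNA content, which cells have after replication and through meiotic prophase. There were 2 Ythdc2 knockout libraries, KO A with 1522 cells and KO B with 1855 cells, and 1 wild-type library, WT, with 1151 cells. Their titles also say embryo, and the postnatal age label was followed. Per the labels, the knockout line had been described earlier and the other Ythdc2 mutant lines of the study were made in embryos of the C57BL/6 by DBA/2 hybrid. Nothing in the labels says whether KO A and KO B came from different mice, so the spread behind the p-values may be technical only. The bulk RNA and iCLIP samples of the same study were not analysed here.

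CDK1 bound to a B-type cyclin drives entry into mitosis. WEE1 in the nucleus and MYT1 (from Pkmyt1) at internal membranes hold that complex off by phosphorylating CDK1, and the CDC25 phosphatases remove those phosphates. CDK2 works with cyclins E and A around replication and, in mouse germ cells, is needed in meiotic prophase. p27 (from Cdkn1b) binds cyclin and CDK together, whereas p18 and p19 (from Cdkn2c and Cdkn2d) bind CDK4 and CDK6. Cks2 binds CDKs directly, and mouse germ cells without it stop in the first meiotic division. YTHDC2 is a YTH-domain RNA helicase that mouse germ cells require to leave the mitotic cycle for meiosis.

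Values are UMIs (unique molecular identifiers, 1 per captured transcript) divided by the authors' size factor of the cell and averaged over cells, called normalised UMIs per cell. Cells are grouped by the authors' clusters, given as numbers. The authors named cluster 1 as undifferentiated spermatogonia, 2 as differentiating spermatogonia and 3 as leptotene-zygotene spermatocytes, and the names of 4 and 5 mix the types of 2 and 3. Cluster 1 held 66 cells of KO A, 90 of KO B and 45 of WT, and cluster 2 held 529, 814 and 654. Cluster 3 held 427 WT cells and no KO cell, while cluster 4 held 592 cells of KO A, 441 of KO B and 24 of WT, and cluster 5 held 335, 510 and 1. The median cell had 9760 UMIs in KO A, 12091 in KO B and 12827 in WT, with 9.11%, 6.64% and 5.59% of UMIs from mitochondrial genes. Ythdc2 averaged 0.539 and 0.508 normalised UMIs per cell in KO A and KO B, against 2.35 in WT, in the direction of the labels. Meiotic prophase markers (8 of 8 detected) summed to 2313 to 3730.3 CPM (UMIs per 1e6 UMIs) in KO clusters 4 and 5 and to 4999.5 CPM in WT cluster 3. Markers of undifferentiated spermatogonia (7 of 7 detected) reached 677, 629 and 491 CPM in cluster 1 of KO A, KO B and WT, against at most 51.4 CPM in any other cluster. Markers of differentiating spermatogonia (6 of 6 detected) were not highest in cluster 2. They summed to 1272, 1329 and 1005 CPM there in KO A, KO B and WT, and to 2178 CPM in WT cluster 3. KO A and KO B reached 2017 and 1982 CPM in cluster 4, and 2993 and 2795 CPM in cluster 5. Myoid markers, of the smooth muscle around the tubules, summed to 902, 1130.5 and 2088 CPM in cluster 1 of KO A, KO B and WT, and to at most 8.47 CPM elsewhere, which bears on the cluster 1 values below.

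Promoters are shown for 3 members, since Cdc25b and Cks2 were high and Cdk2 was low in the cells with the most M-phase RNA, as described further on. Each runs from 250 bases before to 50 bases after the annotated start (RefSeq, GRCm38.p6), 5′ to 3′ on the gene's strand, with matches in capitals. The Cdc25b window lies at chr2:131186698-131186997 on the plus strand, the Cks2 window at chr13:51644982-51645281 on the plus strand, and the Cdk2 window at chr10:128705002-128705301 on the minus strand.
Cdc25b: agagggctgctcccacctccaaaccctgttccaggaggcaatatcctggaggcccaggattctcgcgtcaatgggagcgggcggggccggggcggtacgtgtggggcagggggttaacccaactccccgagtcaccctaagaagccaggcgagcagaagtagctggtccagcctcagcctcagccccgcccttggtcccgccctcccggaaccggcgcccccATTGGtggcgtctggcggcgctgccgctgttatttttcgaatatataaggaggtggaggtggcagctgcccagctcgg
Cks2: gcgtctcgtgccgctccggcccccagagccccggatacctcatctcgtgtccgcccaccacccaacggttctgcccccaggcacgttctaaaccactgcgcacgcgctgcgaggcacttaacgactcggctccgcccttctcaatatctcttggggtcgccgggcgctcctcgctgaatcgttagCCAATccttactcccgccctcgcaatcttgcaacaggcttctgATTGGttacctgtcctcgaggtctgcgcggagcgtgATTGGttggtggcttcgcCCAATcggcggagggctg
Cdk2: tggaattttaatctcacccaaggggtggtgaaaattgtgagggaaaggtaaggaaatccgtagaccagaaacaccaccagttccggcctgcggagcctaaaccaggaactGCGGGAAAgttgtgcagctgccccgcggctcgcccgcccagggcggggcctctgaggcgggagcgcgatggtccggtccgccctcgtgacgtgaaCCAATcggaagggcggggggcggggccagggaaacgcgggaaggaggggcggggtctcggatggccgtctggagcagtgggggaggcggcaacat

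The motifs searched, on both strands, were the CCAAT box (CCAAT), the E2F site (TTTCCCGC, TTTGGCGC or TTTCGCGC) and the cell cycle homology region (TTTGAA), and no letters are shared by 2 matches in these windows. The Cdc25b window holds 1 CCAAT match and the Cks2 window 4. The Cdk2 window holds 1 CCAAT match and 1 E2F match. Of all 32851 windows of this length, 37.4% hold a CCAAT match, 1.84% an E2F match and 17.9% a TTTGAA match. Windows were at hand for 7 members, and none of them holds TTTGAA. No other spelling of the cell cycle homology region was searched, so these windows are not shown to lack it. Cdc25a, on chromosome 9, has 2 CCAAT matches and 1 E2F match, and Cdkn1b, on chromosome 6, has 3 CCAAT matches. Cdkn2d, on chromosome 9, has 1 CCAAT match. Cdkn2c, on chromosome 4, has 1 window without a match and another with 1 CCAAT match. A match describes the letters and was not tested as a binding site.

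The comparison of KO with WT in the cells furthest along asked whether the brakes and their release differ once the genotypes have parted. It took clusters 3, 4 and 5 together, so it sets KO cells of clusters 4 and 5 mainly against WT cells of cluster 3. In these cells 4 genes that release or hold CDK1 were all higher in KO than in WT. They were the brakes Wee1 and Pkmyt1 and the phosphatases Cdc25b and Cdc25c, which undo their action. Cks2 was also higher in KO and the inhibitor Cdkn2c was lower, while Cdc25a, Cdk2 and Cdkn2d did not pass the test. With limma across all genes (adjusted p under 0.05), 66.5% of 9299 genes were called in this class, 37.4% higher and 29.1% lower. Of the members, 9 were abundant enough to be tested, 5 were called higher, 1 lower and 3 were not called. The median log2 difference of the 9 was 0.95, beside 0.08 over all genes tested. The members' share of calls, 6 of 9, lies near that of all genes and is no result about them, so the values below describe the sizes of the differences.

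Cks2 averaged 5.72 and 5.93 normalised UMIs per cell in KO A and KO B, against 1.41 in WT. Both KO libraries lay far above WT, and the difference was 4.13-fold (5.82 ± 0.149 in KO, SD, n = 2; log2 2.04, SE 0.11; limma adjusted p = 4.1e-76). The SE and p in this class rest on the spread shared across genes, not on that of the gene itself. Pkmyt1, the membrane-bound brake, averaged 0.412 and 0.362 in KO A and KO B, against 0.0745 in WT. The KO values were close to each other and 5.19-fold above WT (0.387 ± 0.0352, SD, n = 2; log2 2.23, SE 0.17; limma adjusted p = 5.9e-39). It had the largest fold among the members in this class. Wee1, the nuclear brake, averaged 1.36 and 1.33 in KO A and KO B, against 0.692 in WT. The KO libraries were close to each other and stood 1.94-fold above WT (log2 0.95, SE 0.10; limma adjusted p = 6.8e-19).

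Among the phosphatases, Cdc25b averaged 0.560 and 0.568 in KO A and KO B, against 0.256 in WT, a 2.20-fold difference (log2 1.11, SE 0.13; limma adjusted p = 5.0e-16). Cdc25c averaged 0.189 and 0.243 in KO A and KO B, against 0.105 in WT, a 2.06-fold difference (log2 0.97, SE 0.18; limma adjusted p = 3.5e-07). For both genes each KO library was above WT. Cdc25a, which also acts at the start of replication, averaged 0.767 and 0.801 in KO A and KO B, against 0.848 in WT, and its log2 difference of -0.11 (SE 0.11) did not pass (limma adjusted p = 0.362). Of the 3 phosphatases 2 were thus called and 1 was not, and the difference between them was not tested.

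Cdkn2c was the member called lower in KO than in WT. It averaged 0.443 and 0.477 in KO A and KO B, against 0.812 in WT, a 1.77-fold lower level in KO (log2 -0.81, SE 0.12; limma adjusted p = 1.5e-10). Cdkn2d, which binds the same kinases, averaged 1.66 and 1.67 in KO A and KO B, against 1.49 in WT, and its log2 difference of 0.16 (SE 0.10) did not pass (limma adjusted p = 0.157). It did pass with every cell thinned to 5000 UMIs (log2 0.43, limma adjusted p = 2.9e-04) and with KO cluster 4 alone set against WT cluster 3 (0.28, limma adjusted p = 0.0191). Thinning also raised the median log2 of all genes, as given in the last section. With KO cluster 5 alone set against WT cluster 3 the log2 difference of Cdkn2d was -0.041 and did not pass. Cdk2 averaged 0.554 and 0.535 in KO A and KO B, against 0.598 in WT, a log2 difference of -0.13 (SE 0.12; limma adjusted p = 0.329). Cdkn1b was too low to be tested here, with 1 and 5 UMIs in all KO A and KO B cells of this class and none in WT.

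**Figure D1:**
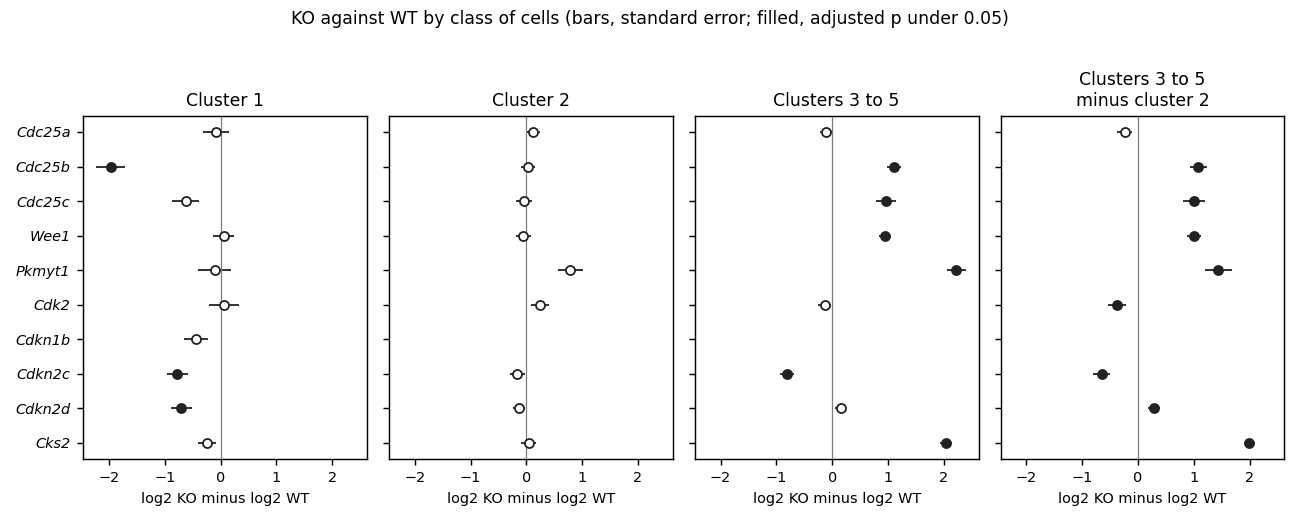
Log2 difference of KO from WT for each member in cluster 1, in cluster 2, in clusters 3 to 5, and the difference between the last 2, with standard errors as bars and filled points for a limma adjusted p under 0.05. Clusters 3 to 5 hold the filled points at 0.95 or above for Cks2, Pkmyt1, Cdc25b, Cdc25c and Wee1, while cluster 2 has no filled point.

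The KO cells of clusters 4 and 5 were also set against WT cluster 3 separately. The 6 calls were made in each case, where 64.4% (cluster 4) and 63.5% (cluster 5) of all genes were called. For Cks2 the alternatives of this comparison gave log2 differences between 1.86 and 2.17, for Pkmyt1 between 1.81 and 2.39, and for Cdkn2c between -0.94 and -0.63. The same holds for Wee1 (0.83 to 1.04), Cdc25b (1.00 to 1.35) and Cdc25c (0.78 to 1.17), with the largest adjusted p at 0.0210, for Cdc25c. The 24 WT cells of cluster 4, of which 4 were called doublets, had Wee1 at 0.717, Cdc25b at 0.759 and Cks2 at 2.99 normalised UMIs per cell. KO A and KO B cells of that cluster had Wee1 at 1.44 and 1.42, Cdc25b at 0.601 and 0.596, and Cks2 at 5.60 and 5.87. For Wee1 and Cks2 the KO values lay above the 95% Poisson interval of the WT cells (0.418 to 1.15 for Wee1, 2.35 to 3.75 for Cks2), which covers counting error only, and for Cdc25b they lay inside it (0.442 to 1.22). Pkmyt1, at 0.402 and 0.360 in KO A and KO B against 0.203 in WT (interval 0.0554 to 0.521), and Cdc25c, at 0.168 and 0.222 against 0.121 (0.0250 to 0.354), also lay inside. Cdkn2c turned round in this cluster, at 0.462 and 0.494 in KO A and KO B against 0.286 in WT, inside the interval of 0.115 to 0.589 that 7 UMIs give.

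Genotype and meiotic stage cannot be told apart in this class, since the KO and WT cells lie in different clusters of the authors and WT is 1 library. The M-phase list, 22 genes of mitosis that include no member, had a median per-cell sum of 71.7 to 91.7 normalised UMIs over the KO clusters 4 and 5, against 60.003 in WT cluster 3. Each of these clusters was therefore split at its own median of that sum, and the members were read in the cells above it (M-phase high) and below it (M-phase low). The mean sum was 107 to 119.6 in M-phase high and 50.3 to 59.97 in M-phase low KO cells, against 81.9 and 47.9 in WT.

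Wee1 and Pkmyt1 stood above WT in both kinds of cells, as did Cks2 and Cdc25b, given below. Among M-phase high cells, Pkmyt1 was at 0.410 and 0.341 in KO A and KO B of cluster 4 and at 0.421 and 0.375 in cluster 5, against 0.0815 in WT cluster 3. Among M-phase low cells it was at 0.394, 0.379, 0.436 and 0.353 in the same order, against 0.0535 in WT. Wee1 ranged from 1.25 to 1.53 in M-phase high and from 1.10 to 1.37 in M-phase low KO cells, against 0.708 and 0.674 in WT. Neither gene followed the M-phase list in KO, with M-phase high over low ratios of 0.898 to 1.06 for Pkmyt1 and 0.996 to 1.21 for Wee1.

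Within the KO clusters Cdc25c followed the list most closely of these 6 members, while in WT Cks2 had the larger ratio of M-phase high to low cells (3.89, against 3.13 for Cdc25c). In M-phase high cells it was at 0.285 and 0.356 in KO A and KO B of cluster 4 and 0.381 and 0.407 in cluster 5, against 0.155 in WT. In M-phase low cells it was at 0.0515, 0.0876, 0.0728 and 0.115, against 0.0496 in WT, so that KO A of cluster 4 was near the WT value there. Cks2 was at 8.99 to 9.41 in M-phase high and 1.84 to 2.97 in M-phase low KO cells, against 2.10 and 0.540 in WT. Cdc25b was at 0.681 to 0.832 in M-phase high and 0.293 to 0.394 in M-phase low KO cells, against 0.256 and 0.201 in WT. Cdkn2c ran the other way between genotypes, at 0.451 to 0.548 and 0.369 to 0.441 in KO, against 0.762 and 0.921 in WT. These are descriptions over 1 WT cluster and 4 KO clusters of 2 libraries, with no test.

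**Figure D2:**
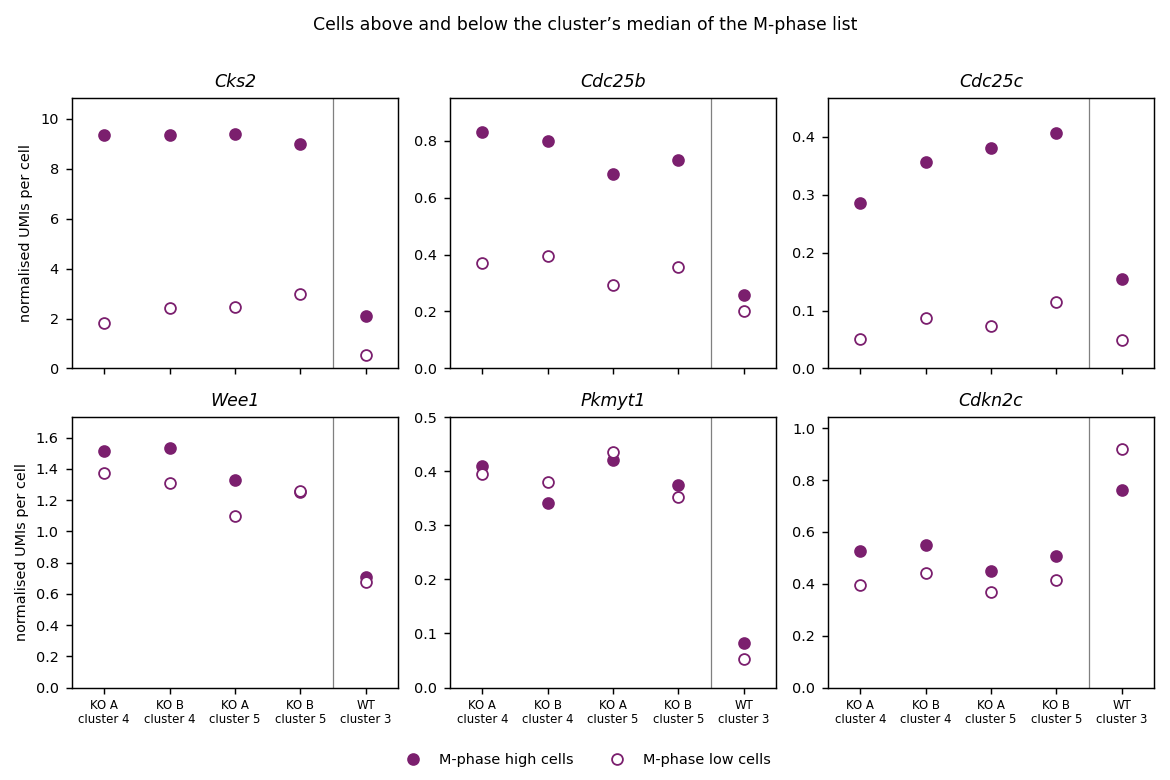
Mean normalised UMIs per cell of 6 members in M-phase high (filled) and M-phase low (open) cells of KO clusters 4 and 5, left of the vertical line, and of WT cluster 3, right of it. Pkmyt1, Wee1, Cks2 and Cdc25b lie above WT in both kinds of cells. The Cdc25c values of M-phase low KO cells (0.0515 to 0.115) reach down to that of WT (0.0496).

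Cluster 2 gave the comparison within cells that the authors placed in 1 type in both genotypes. Its marker sums still differed between genotypes. Meiotic prophase markers summed to 1397, 1626 and 2131 CPM in KO A, KO B and WT. Markers of differentiating spermatogonia summed to 1272, 1329 and 1005 CPM. How far stage enters the cluster 2 values was not tested. limma called 4.3% of 9435 genes there (2.87% or 271 higher, 1.43% or 135 lower; with TMM scaling 496 higher, 557 lower), and of the 9 members tested it called 0. At an unadjusted p under 0.05 there was 1, Pkmyt1, and edgeR and DESeq2 called 0. Cks2 averaged 4.50 and 4.38 in KO A and KO B, against 4.30 in WT (log2 0.05, SE 0.13), Cdc25b 0.646 and 0.680, against 0.651 (0.03, SE 0.13), and Cdc25c 0.451 and 0.459, against 0.469 (-0.04, SE 0.14). For Cdc25b the WT value lay between the KO libraries, and for Cks2 and Cdc25c just outside them.

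Pkmyt1 stood nearest to a call in cluster 2. It averaged 0.162 and 0.136 in KO A and KO B, against 0.0816 in WT, or 85, 136 and 76 UMIs. Both KO libraries were above WT, and the log2 difference of 0.79 (SE 0.22) had a limma adjusted p of 0.0601. It passed with TMM scaling (0.75, limma adjusted p = 0.0279) and without the 1 cell of cluster 2 that held 10 or more red blood cell UMIs (0.79, limma adjusted p = 0.0484). Wee1 averaged 1.32 and 1.09 in KO A and KO B, against 1.25 in WT, which lay between them. Cdk2 averaged 0.554 and 0.448, against 0.419, with a log2 difference of 0.25 (SE 0.16; limma adjusted p = 0.358).

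The inhibitors also kept close to WT in cluster 2. Cdkn2c averaged 0.494 and 0.470 in KO A and KO B, against 0.540 in WT, and Cdkn2d 1.17 and 1.16, against 1.28, with log2 differences of -0.16 and -0.13 that did not pass (limma adjusted p = 0.493 and 0.501). Cdc25a averaged 0.788 and 0.782, against 0.719 (log2 0.13; limma adjusted p = 0.551). The difference between the classes was then tested itself, as clusters 3 to 5 minus cluster 2 within each library, KO minus WT. Of all genes 51.2% were called there, 29.7% higher and 21.6% lower, and of the 9 members 6 were called higher and 2 lower. Cks2 (log2 1.99, SE 0.10), Pkmyt1 (1.44, SE 0.24), Cdc25b (1.08, SE 0.15), Cdc25c (1.01, SE 0.20) and Wee1 (1.01, SE 0.12) led, with limma adjusted p between 1.2e-86 and 1.5e-06. Smaller differences were called for Cdkn2d (0.29, SE 0.12; limma adjusted p = 0.0266), Cdkn2c (-0.65, SE 0.15; 1.1e-04) and Cdk2 (-0.38, SE 0.16; 0.0313). DESeq2 called 4 of the 8, Cks2, Pkmyt1, Cdc25b and Wee1, and edgeR did not call Cdk2.

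Whether the members vary with the mitotic programme inside cluster 2 was asked in all 3 libraries, each split at its own median of the M-phase list, with the library as a block in limma. Cdc25b, Cdc25c and Cks2 were higher in the M-phase high cells, Cdkn2c slightly so, and Cdk2 was lower. The brakes Wee1 and Pkmyt1 did not pass. Of all genes 16.3% were called in this comparison (8.51% higher and 7.83% lower, or 1228 higher and 518 lower genes with TMM scaling, against 803 and 739). Of the 9 members 4 were called higher and 1 lower, and 4 were not called. The SE and p here rest mostly on the spread shared across genes, not on that of the gene itself. M-phase high cells were also deeper, with medians of 10386, 13003 and 16321 UMIs in KO A, KO B and WT, against 9210, 11049 and 11790 in M-phase low cells. In KO A, KO B and WT, 93, 156 and 168 cells lay within 10% of the median at which their library was split.

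Cdc25b averaged 0.902, 0.929 and 0.890 in the M-phase high cells of KO A, KO B and WT, against 0.390, 0.431 and 0.411 in the M-phase low cells. The mean of every library was higher in M-phase high cells, and the 3 libraries gave nearly the same 2.21-fold difference (log2 1.13, SE 0.08; limma adjusted p = 8.7e-17). Cdc25c averaged 0.619, 0.605 and 0.628 in M-phase high cells, against 0.282, 0.312 and 0.309 in M-phase low cells. It was 2.05-fold higher, again with a higher mean in every library (log2 1.01, SE 0.10; limma adjusted p = 4.1e-12). Cks2 averaged 6.00, 5.47 and 5.59 in M-phase high cells, against 3.01, 3.29 and 3.01 in M-phase low cells, a 1.83-fold difference (log2 0.87, SE 0.05; limma adjusted p = 2.0e-21).

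Cdk2 was the member that went down. It averaged 0.465, 0.361 and 0.332 in the M-phase high cells of KO A, KO B and WT, against 0.644, 0.535 and 0.506 in the M-phase low cells. The level was lower in M-phase high cells of every library, by 1.45-fold in the ratio of the means (log2 -0.53, SE 0.10; limma adjusted p = 3.2e-05). Cdkn2c averaged 0.535, 0.504 and 0.622 in M-phase high cells, against 0.454, 0.435 and 0.459 in M-phase low cells, a 1.23-fold difference (log2 0.29, SE 0.09; limma adjusted p = 0.0243). Its call ended with thinned cells and without KO B or WT. Without the library block the calls of Cdk2 and Cdkn2c ended, and DESeq2 did not make them either.

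Wee1 averaged 1.40, 1.08 and 1.26 in the M-phase high cells of KO A, KO B and WT, against 1.25, 1.10 and 1.24 in the M-phase low cells. Its mean was higher in M-phase high cells of 2 of 3 libraries, and the difference did not pass (log2 0.06, SE 0.06; limma adjusted p = 0.602). Pkmyt1 averaged 0.147, 0.123 and 0.0635 in M-phase high cells, against 0.176, 0.149 and 0.0997 in M-phase low cells. It was lower in M-phase high cells of 3 of 3 libraries, but the log2 difference of -0.36 (SE 0.18) did not pass (limma adjusted p = 0.166). Cdc25a and Cdkn2d had log2 differences of -0.10 each and did not pass.

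**Figure D3:**
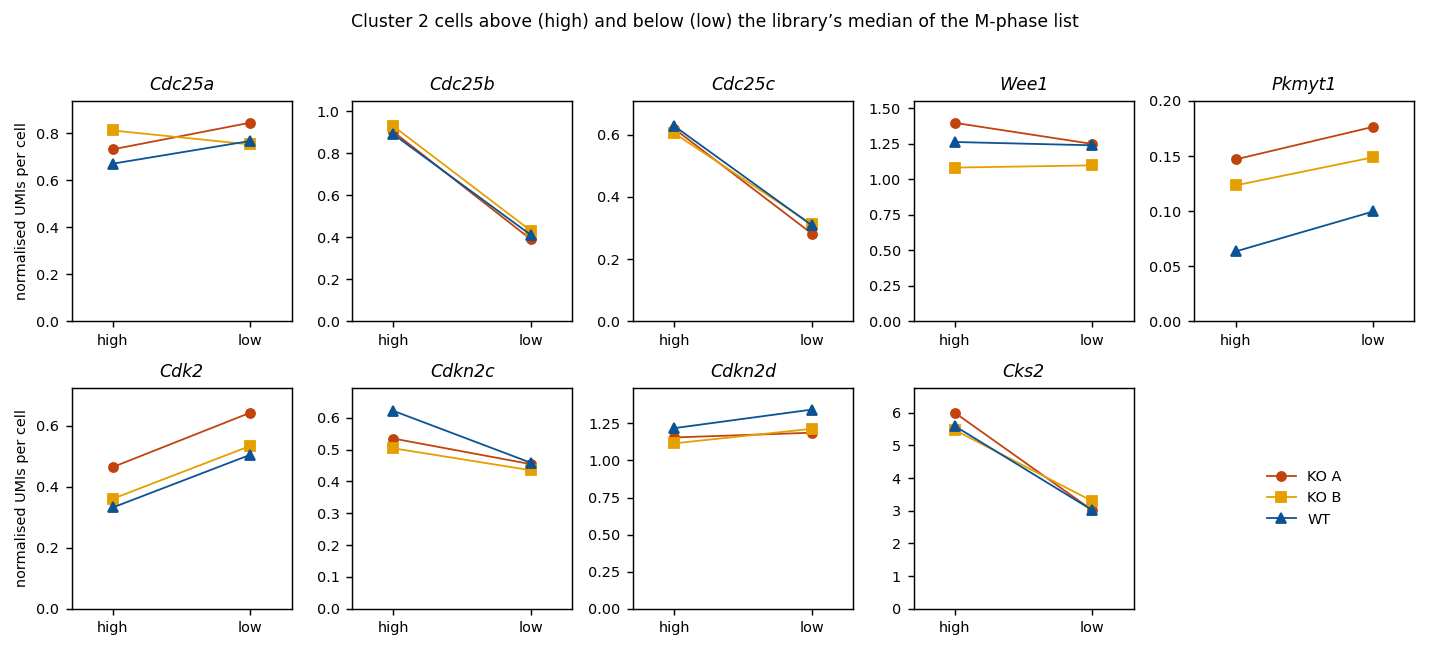
Mean normalised UMIs per cell of 9 members in cluster 2 cells above (high) and below (low) the library's median of the M-phase list, with 1 line per library (KO A, KO B, WT). The lines of Cdc25b, Cdc25c and Cks2 fall steeply from high to low in every library, those of Cdk2 climb, and those of Wee1 stay nearly level.

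Cluster 1 held the fewest cells and a mixture of cells. Of its cells, 50 of 66 in KO A, 71 of 90 in KO B and 29 of 45 in WT had 10 or more UMIs of the germ cell genes Ddx4 and Dazl. A further 10, 13 and 10 cells had 10 or more UMIs of myoid, stromal or red blood cell markers, and 6 cells in each library had neither. Taking all cells, limma called 2.84% of 11180 genes, 2.2% lower, and of the 10 members 0 were called higher, 3 lower and 7 were not called. In the Ddx4 and Dazl cells alone, a choice made after the data were seen, limma called 2.84% of 10442 genes and 0 of the 9 members tested (1, Cdc25b, at an unadjusted p under 0.05). Cdc25b averaged 0.420 and 0.284 in KO A and KO B, against 1.38 in WT, over all cells of the cluster (log2 -1.97, SE 0.26; limma adjusted p = 5.1e-05). In the Ddx4 and Dazl cells it averaged 0.114 and 0.136 in KO A and KO B, against 0.302 in WT, from 15, 19 and 18 UMIs (log2 -1.22; limma adjusted p = 0.132).

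Cdkn2c shows the mixture most plainly. Over all cluster 1 cells it averaged 1.46 and 1.06 in KO A and KO B, against 2.14 in WT (log2 -0.78, SE 0.19; limma adjusted p = 0.0257). The cells with myoid, stromal or red blood cell UMIs held 99 of 107 Cdkn2c UMIs in KO A, 94 of 107 in KO B and 86 of 93 in WT. The Ddx4 and Dazl cells held 4, 10 and 1. Their level of 0.0412, 0.0597 and 0.00954 in KO A, KO B and WT lies below that of cluster 2, where Cdkn2c averaged 0.494, 0.470 and 0.540. Cdkn2d averaged 1.01 and 0.853 in KO A and KO B, against 1.52 in WT, over all cells (log2 -0.70, SE 0.19; limma adjusted p = 0.0462), and 0.327 and 0.324, against 0.375, in the Ddx4 and Dazl cells (log2 -0.20; limma adjusted p = 0.830). What share of the KO difference in cluster 1 the other cells carry was not tested beyond these values.

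Cdkn1b was read almost only in cluster 1, which held 52 of its 55 UMIs in KO A, 105 of 117 in KO B and 57 of 60 in WT. It was seen in 40.9%, 51.1% and 53.3% of cluster 1 cells of KO A, KO B and WT (24.2%, 24.4% and 24.4% with cells thinned to 5000 UMIs), and in at most 0.860% of the cells of any other cluster. In WT cluster 3 it had no UMI in 427 cells, a count that puts the upper limit at 0.703% of cells with a UMI. Over all cells of cluster 1 it averaged 0.623 and 0.806 in KO A and KO B, against 0.963 in WT (log2 -0.44, SE 0.22; limma adjusted p = 0.332). The Ddx4 and Dazl cells kept 29, 61 and 29 of these UMIs and averaged 0.368 and 0.412 in KO A and KO B, against 0.458 in WT. Its UMIs in cluster 1 thus lay in both kinds of cells, and the KO difference did not pass.

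**Figure D4:**
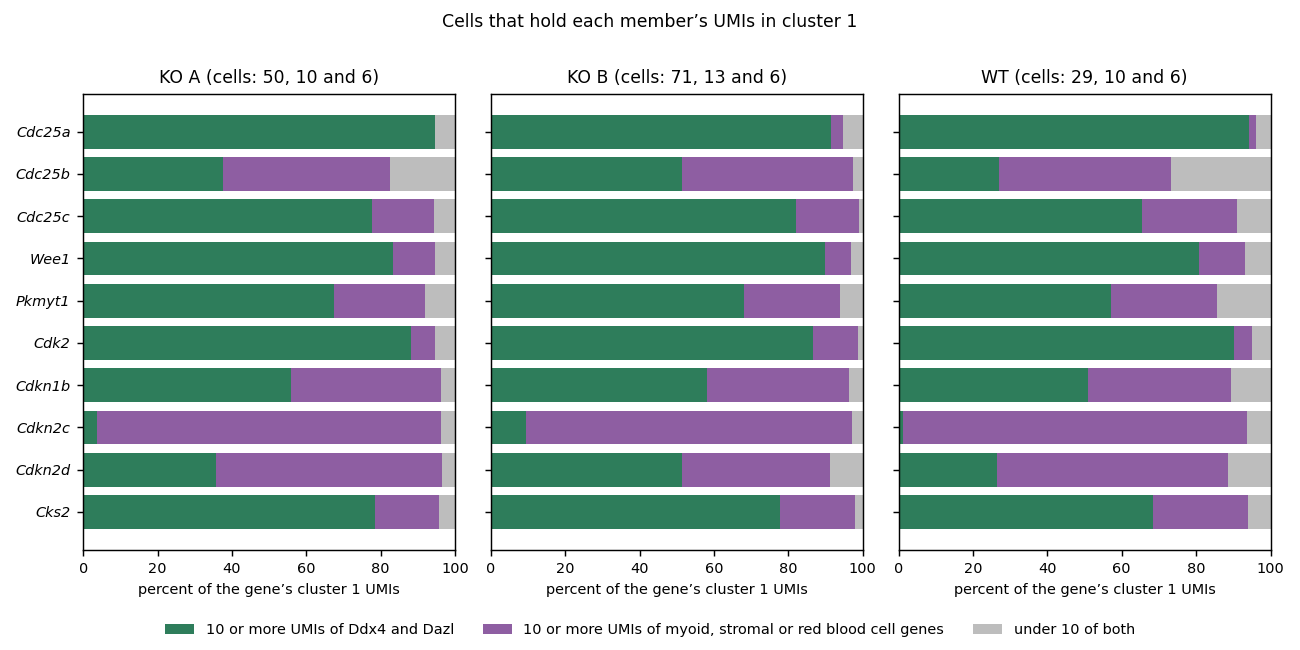
Percent of each member's cluster 1 UMIs found in cells with 10 or more UMIs of Ddx4 and Dazl (green), in cells with 10 or more UMIs of myoid, stromal or red blood cell markers (purple), and in cells with neither (grey), with the number of such cells above each library. For Cdc25a the green bars cover over 90% in KO A, KO B and WT, and for Cdkn2c under 10%.

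The remaining members of cluster 1 did not pass in KO against WT. Cdc25a had 94.7%, 91.5% and 94.2% of its cluster 1 UMIs in the Ddx4 and Dazl cells of KO A, KO B and WT. Cks2 was at 8.07 and 7.09 in KO A and KO B, against 8.92 in WT (log2 -0.24; limma adjusted p = 0.485), and at 6.73 and 5.72, against 6.87, in the Ddx4 and Dazl cells. Over all cells these were its highest levels, but in the Ddx4 and Dazl cells the KO B value lay below those of KO B in clusters 4 and 5 (5.87 and 5.98). Cdc25c averaged 0.453 and 0.567 in KO A and KO B, against 0.785 in WT (log2 -0.62; limma adjusted p = 0.182). Wee1 (1.34 and 1.10, against 1.16) and Pkmyt1 (0.354 and 0.365, against 0.388) were close between genotypes. In the Ddx4 and Dazl cells Pkmyt1 averaged 0.237 and 0.246 in KO A and KO B, against 0.238 in WT.

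Read across the clusters, the members followed different orders, given here as description because the clusters were made from all genes. In the KO libraries Pkmyt1 was low in cluster 2, at 0.149 ± 0.0181 (SD, n = 2), and high in clusters 4 and 5, at 0.381 ± 0.0299 and 0.396 ± 0.0458, which do not differ beyond their spread. Cluster 1 was at 0.360 ± 0.00752 over all its cells, but its Ddx4 and Dazl cells, given above, lay between cluster 2 and clusters 4 and 5. In WT it was at 0.388 over all cells of cluster 1, at 0.0816 and 0.0675 in clusters 2 and 3, whose Poisson intervals overlap, and at 0.203 in the 24 cells of cluster 4, whose interval overlaps those of clusters 2 and 3. Cks2 in KO was at 4.44 ± 0.0869 in cluster 2, 5.74 ± 0.187 in cluster 4 and 5.95 ± 0.0433 in cluster 5, so that clusters 4 and 5 were above cluster 2. In WT it was at 4.30 in cluster 2 and 1.32 in cluster 3. Wee1 in WT was at 1.25 in cluster 2 and 0.691 in cluster 3, while KO clusters 4 and 5 were at 1.43 ± 0.0180 and 1.23 ± 0.0292, beside 1.21 ± 0.165 in KO cluster 2.

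Cdc25c declined from cluster 2 onward in both genotypes, to 0.195 ± 0.0378 and 0.244 ± 0.0243 in KO clusters 4 and 5 beside 0.455 ± 0.00563 in KO cluster 2, and to 0.102 in WT cluster 3 beside 0.469 in WT cluster 2. Cdc25b in KO was at 0.663 ± 0.0242 in cluster 2 and at 0.599 ± 0.00328 and 0.515 ± 0.0399 in clusters 4 and 5, and in WT at 0.651 in cluster 2 and 0.228 in cluster 3. Cdkn2c in KO was at 0.482 ± 0.0175 in cluster 2 and at 0.478 ± 0.0231 and 0.436 ± 0.0363 in clusters 4 and 5, without a rise. In WT it was at 0.540 in cluster 2, at 0.842 in cluster 3 and at 0.286 in the 24 cells of cluster 4. Cdkn2d was highest in KO cluster 4, at 1.83 ± 0.0944, against 1.17 ± 0.00481 in KO cluster 2, and in WT it was at 1.28 in cluster 2 and 1.51 in cluster 3. Cdk2 spanned a narrow range, from 0.419 to 0.633 over the clusters and libraries with at least 20 cells.

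**Figure D5:**
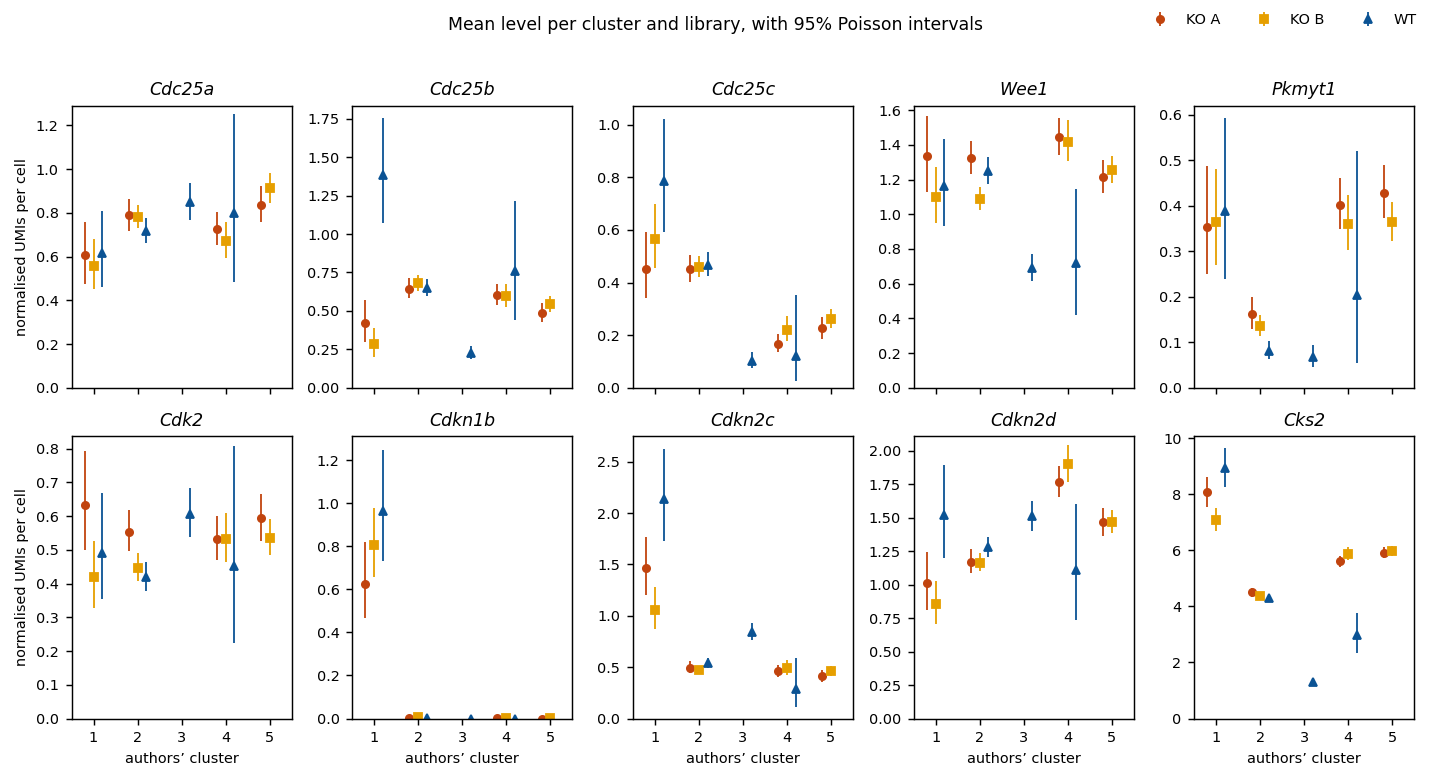
Mean normalised UMIs per cell of the 10 members in the authors' clusters 1 to 5, for KO A, KO B and WT, with 95% Poisson intervals that cover counting error only, in clusters with at least 20 cells. Cks2 in WT is at 1.32 in cluster 3, below every KO point, and Cdkn1b lies near 0 outside cluster 1.

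Over all cells of each library, where the mix of clusters enters, 33.1% of 9637 genes were called (18.3% higher, 14.8% lower) and 4 of 9 members with them. Pkmyt1 averaged 0.322 and 0.263 in KO A and KO B, against 0.0908 in WT (3.22-fold; log2 1.58, SE 0.16; limma adjusted p = 3.9e-08). Cks2 was 1.60-fold higher (5.40 and 5.30, against 3.35; log2 0.68, SE 0.14; limma adjusted p = 5.0e-04) and Cdkn2c 1.41-fold lower (0.505 and 0.502, against 0.709; log2 -0.49, SE 0.12; limma adjusted p = 0.00245). Wee1, at 1.35 and 1.21 against 1.03, was called by limma (log2 0.31, SE 0.11; limma adjusted p = 0.0358) but not with TMM scaling or by edgeR or DESeq2, and DESeq2 did not call Cdkn2c (adjusted p = 0.0519).

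The genes around the members were read from 4 lists of the pathway. Of 21 kinases, phosphatases and binders that act on CDC25, WEE1 or MYT1, 14 were higher and 3 lower in KO in clusters 3 to 5 (median log2 0.56), where 37.4% of all genes were higher and 29.1% lower (median 0.08). They include Plk1 (log2 2.41) and Aurka (2.18), kinases that activate mitotic entry, and the 14-3-3 protein Ywhah (1.89). Ywhah averaged 2.20 and 2.25 in KO A and KO B, against 0.592 in WT, whereas Ywhaq, another 14-3-3 protein, averaged 3.39 and 3.27, against 5.69 (-0.77). Fbxw11, a subunit of the ligase that marks WEE1 for breakdown, was higher in clusters 3 to 5 and also in cluster 2, at 0.345 and 0.334 in KO A and KO B, against 0.205 in WT (log2 0.70, SE 0.16; limma adjusted p = 0.0393). In cluster 2 it was called beside Ywhah (0.47) and Ywhaq (-0.61), with 2 of 21 higher and 1 lower.

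Of 14 CDKs and cyclin partners tested in clusters 3 to 5, 7 were higher and 5 lower (median log2 0.36), beside the 66.5% of all genes called there, which holds for the other lists too. Cdk1 (2.29), Ccnb2 (2.07) and Ccnb1 (2.00), the target of the brakes and its cyclins, were higher. The meiotic cyclin Ccnb3 (-2.40) and Spdya, a CDK2 activator of meiotic prophase (-1.63), were lower. Spdya averaged 0.913 and 0.803 in KO A and KO B, against 2.67 in WT, beside the Cdk2 values given above that did not pass. In cluster 2, 0 of these 14 were higher and 1 was lower, Ccnb3 (-1.72). Of 5 other CDK inhibitors, 1 was higher and 3 lower in clusters 3 to 5, with Cdkn2a at -0.79, and of 4 tested genes of p27 turnover 1 was higher and 2 lower, Cul1 (-0.72) and Skp1a (-0.70). In cluster 2 limma called 0 of the 5 inhibitors and 0 of the 4 turnover genes (1 and 2 at an unadjusted p under 0.05), and by this test the background was 4.3%.

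Within cluster 2 the same lists were read against the M-phase list, where 8.51% of all genes were higher and 7.83% lower. Of the 14 CDKs and cyclin partners, 6 were higher in M-phase high cells, among them Ccnb1 (log2 0.96) and Cdk1 (0.93), and 2 were lower, the E cyclins Ccne2 (-0.59) and Ccne1 (-0.52), which partner CDK2. Of the 21 regulators 3 were higher, Plk1 (0.91), Aurka (0.77) and Bora (0.28), and Arpp19 (-0.14) was lower. Cdkn3 (1.11) was higher and Skp2 (-0.63) lower. Cdc25b, Cdc25c and Cks2 thus had log2 differences in the range of Cdk1 and Plk1, and that of Cdk2 lay beside those of its E cyclins.

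The genes whose levels were most like each member were sought over 12 points, 1 per cluster and library with at least 20 cells, by Pearson correlation of log2(CPM + 1) among 8308 genes. The points share libraries and depth, so the values are descriptive. Those of cluster 1 take all its cells, and there most Cdkn2c UMIs lay in cells with myoid, stromal or red blood cell UMIs. Another point is the 24 WT cells of cluster 4, with 7 Cdkn2c UMIs. How far these points set the r values was not tested. Cks2 was most like Iqgap1 (r = 0.97), Sohlh1 (0.96) and Dpy30 (0.96), and Wee1 most like Yipf3 (0.97), Wrap73 (0.96) and Klhl2 (0.96). Pkmyt1 was most like Tspan3 (0.95), St3gal5 (0.95) and Mgrn1 (0.94). Cdc25a was most like Mrpl40 (0.96), Acvr2a (0.93) and Sms (0.93), Cdc25b most like Cog1 (0.89), Usf2 (0.89) and Maea (0.88), and Cdc25c most like Psma7 (0.98), Nt5c3b (0.97) and Rlim (0.97). Cdkn2d was most like Pld3, Hgsnat and Alg1 (0.97 each), Cdkn2c was like Smg8 (0.88) and Smim4 (0.85), and Cdk2 most like Dnajc16 (0.84), A130010J15Rik (0.80) and Zbtb24 (0.80). Cdkn1b, at 3.87 CPM on average, was below the level at which likeness was sought. Among the members, Cks2 was most like Pkmyt1 (0.79) and Wee1 (0.77), Pkmyt1 and Wee1 had r = 0.68, and Cdc25a and Cdkn2c ran opposite (-0.68).

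The deposited gene table also gives a U-motif score, which did not enter the choice of members. Cdkn2c, at 0.049, scored above 98.9% of the 14103 genes, and Cks2, at 0.044, above 98.4%. In clusters 3 to 5 and over all cells these 2 lay on opposite sides in KO against WT. Over all cells of cluster 1 both had lower means in KO, but the Cks2 difference did not pass. Most Cdkn2c UMIs of that cluster lay outside the Ddx4 and Dazl cells. In those cells Cdkn2c averaged 0.0412 and 0.0597 in KO A and KO B, against 0.00954 in WT, from 4, 10 and 1 UMIs. Cdk2 followed at 0.027, above 89.7% of genes. Wee1 (0.018), Cdc25b (0.017), Cdkn1b (0.0165) and Cdc25a (0.013) lay above the median of all genes, 0.011, and Pkmyt1 (0.009), Cdkn2d (0.0065) and Cdc25c (0) below it. How the score was made is not stated in the files or labels.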

How the data were processed

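Single-cell RNA libraries of sorted 4N testis cells, 2 KO and 1 WT, were analysed. Per the submitters' processing notes, Cell Ranger 3.0.2 and Scanpy were used, with mm10/GRCm38. Expression was deposited by the authors as natural log values, ln(1 + UMI count / size factor), for 14103 genes in 4528 cells. Their deposited table of cells has UMI counts per cell, the size factor (a score), the mitochondrial fraction, the genotype, a library number and the cluster, and the deposited gene table a U-motif score. Counts were recovered from the matrix (100% of values above 0 were whole within a relative tolerance of 0.001) and held 99.9% of the deposited UMIs. No cell barcode was shared between libraries (0). The KO libraries could not be tied to a particular KO sample.

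Recovered counts were divided by the size factor and averaged over the cells of a class in each library. The test used log2(mean + 0.01) of genes whose mean reached 0.05, which understates the change of low genes, with limma 3.58.1 in R 4.3.3 (empirical Bayes, mean-variance trend, Benjamini-Hochberg over all genes tested). Folds are ratios of means. With 2 KO and 1 WT libraries there is 1 residual degree of freedom, WT is assumed to vary as KO does, and the smallest exact p is 0.333, so calls rest on the spread shared across genes. In clusters 3 to 5 and in the difference between classes the prior degrees of freedom were infinite. The SE and p of these 2 comparisons thus use the shared spread alone and none of the gene's own. In the M-phase split the prior degrees of freedom were 54.2, so its SE and p also rest mostly on the shared spread. The code was tested on simulated data. edgeR 4.0.16 and DESeq2 1.42.0 on recovered counts, other scalings, filters and cell choices were alternatives. Doublets were called with Scrublet in Scanpy 1.11.5 (3, 8 and 9 cells in KO A, KO B and WT) and kept. That share, 20 of 4528 cells, is so low that the caller may not have worked, which was not tested.

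The members and lists were chosen with earlier results of these data known. The genes named are the 10 members, pathway genes past the test in clusters 3 to 5 or cluster 2 (up to the 6 largest in each direction, others as counts), the 3 genes most like each member of at least 10 CPM (1 of those of Cdkn2c is not reported here), and Ythdc2. Genes of the M-phase comparison, Fbxw11, Cdkn2a and others outside the 6 largest, Ddx4 and Dazl were named after their values were seen. Poisson intervals and limits for a count of 0 (3 counts) cover counting error only.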

Additional observations from a re-analysis of the deposited data

Results flagged for a closer look

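For 8 members the KO difference in clusters 3 to 5 itself differed from that in cluster 2, by limma on the within-library difference of the classes, where 51.2% of all genes were called. It was higher by a log2 of 1.99 for Cks2, 1.44 for Pkmyt1, 1.08 for Cdc25b, 1.01 for Cdc25c, 1.01 for Wee1 and 0.29 for Cdkn2d. It was lower for Cdkn2c (-0.65) and Cdk2 (-0.38). The call of Cdk2 ended with thinned cells, without a filter on the mean, and in edgeR and DESeq2, and that of Cdkn2c with thinned cells and in DESeq2. DESeq2 did not make the calls of Cdc25c and Cdkn2d either. In both genotypes cluster 2 is 1 cluster, though its marker sums differed between them. The later class holds other clusters in KO than in WT. The part of either in these values was not tested.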

How the results depend on the processing

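In clusters 3 to 5 the 6 calls among the members were made in every alternative with a test, and DESeq2 called 3480 genes in place of 6183. DESeq2 called fewer elsewhere too: 2 members and 1196 genes in place of 4 and 3188 over all cells, 4 and 1356 in place of 8 and 4852 for the difference between classes, and 3 and 406 in place of 5 and 1542 for the M-phase split. In cluster 1 (3 members, 318 genes) the counts were 0 and 0 without a filter on the mean, 1 and 78 with edgeR and TMM, 1 and 69 with edgeR and RLE, and 0 and 2 with DESeq2. There 1 member was called without cells holding myoid, stromal or red blood cell UMIs, 0 in the Ddx4 and Dazl cells, and 579 genes without doublets. In cluster 2 (0 members, 406 genes) TMM scaling in limma gave 1 and 1053, and leaving out the cell with red blood cell UMIs gave 1 member. The gene count was 3 without a filter, 1603 with edgeR and TMM (803 higher, 800 lower), 1641 with edgeR and RLE (735 higher, 906 lower) and 63 with DESeq2. For the M-phase split, the fit with no replicate block, in which the 2 kinds of cells of a library are not paired, called 3 members and 79 genes, thinned cells gave 796 genes, and leaving out a library 682 to 1401. No paired analysis was possible for KO against WT because the KO libraries carry no replicate number that ties them to WT, of which there is 1. For single members, 493 of 558 tested values under alternatives kept their direction and side of the threshold, 36 lost a call and 4 gained one. The other 25 changed sign, none of them called in either setting. In cluster 1 these log2 values were 0.19 and 0.19 for Pkmyt1 with edgeR (TMM and RLE), 0.20 with DESeq2 and 0.016 in the Ddx4 and Dazl cells. For Cdk2 there they were -0.13 without cells holding myoid, stromal or red blood cell UMIs, -0.39 with thinned cells and -0.20 in the Ddx4 and Dazl cells, and thinned cells gave 0.14 for Cdc25c and 0.27 for Cdkn1b. In cluster 2 they were -0.019 (TMM in limma), -0.049 and -0.068 (edgeR with TMM and RLE) and -0.080 (DESeq2) for Cdc25b, 0.10 for Wee1 with thinned cells, and -0.018 (edgeR with RLE) and -0.027 (DESeq2) for Cks2. With KO cluster 5 set against WT cluster 3 they were 0.043 for Cdc25a and -0.041 for Cdkn2d. Over all cells they were -0.011 (TMM in limma), -0.0064 (edgeR with RLE) and -0.0070 (DESeq2) for Cdc25a, and -0.0025 and -0.0028 (edgeR with RLE, DESeq2) for Cdkn2d, and in the M-phase split 0.0018 and 0.0021 for Cdc25a. With 1 KO library left out, which allows no test here, 6 of 92 values had the other sign. Thinning moved the median log2 of all genes in clusters 3 to 5 to 0.22, beside 0.08, so changes there are read relative to it. In cluster 1 the 45 WT cells and the low UMI counts limit what can be seen.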
